A study of Mus musculus with 52 samples.

Results

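The lymphatic endothelial genes described here are 9 genes chosen by name, namely Prox1, Flt4, Lyve1, Pdpn, Reln, Mmrn1, Vegfc, Vegfd and Ccbe1, out of 27525 genes in the deposited table of normalized counts. All 9 were found, and all 9 passed the filter on low counts in every comparison. The tumors were KPC tumors, grown from pancreatic cancer cells of mice with Pdx1-Cre driven tumors, including mutant Trp53, and placed under the skin of male C57BL/6NHsd mice aged 8 to 10 weeks. Bulk RNA-seq of poly(A) RNA was made of 8 single tumors in each of 4 groups, all collected 14 days after the first treatment. Untreated tumors received neither agent. ADU-S100 tumors received 2 µg of this cGAMP analog, an agonist of STING, the innate sensor of cyclic dinucleotides, once by injection into the tumor. Anti-LTβR tumors received the agonistic antibody against the lymphotoxin-β receptor into the peritoneal cavity, 4 times 100 µg. Combination tumors received both. The tumors grew under the skin and not in the pancreas, and host skin, fat and muscle at the tumor margin can enter a sample.

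Lymphatic vessels drain fluid and cells from tissue to the lymph nodes. Their endothelial cells take and keep their identity through the transcription factor Prox1, carry the receptor VEGFR-3 (the product of Flt4), and grow in response to its ligands VEGF-C and VEGF-D, which have to be cut by proteases to become fully active, a step that CCBE1 helps. LTβR signalling is known from the stroma and vessels of lymphoid organs, and lymphatic vessels often lie next to the lymphoid aggregates that form in inflamed tissue and tumors.

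Values are normalized counts, that is the estimated reads of a gene over the size factor of its library. Fold changes and their standard errors (SE) are on the scale of log2(normalized count + 1), and p-values are those of limma, adjusted over all genes tested in that comparison, with a gene called when the adjusted p was below 0.05. Recovered reads per library ran from 12762453 to 15591986 with similar medians in the 4 groups. No source ties tumors to litters or cages, so the p-values measure the spread between tumors. The labels give all 32 tumors a common tag, which the 20 further libraries do not carry, but the descriptions of the study differ on whether a single experiment or several combined gave these tumors, and no label divides the 32.

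The 6 genes of the lymphatic endothelial cell itself (Prox1, Flt4, Lyve1, Pdpn, Reln and Mmrn1) and the ligand gene Vegfc rose in combination tumors against untreated tumors, which makes 7 of 9 members. Among all 16909 genes tested, 19.6% were called higher. The members' median log2 fold change was 1.37, against -0.02 over all genes tested. All 9 were detected in each of the 32 tumors, although Pdpn, Vegfc, Vegfd and Ccbe1 are made by other cells as well. None of the 9 fell, and Vegfd and Ccbe1 were not called. With anti-LTβR alone 5 members rose (7.21% of all genes were called higher), and with ADU-S100 alone none was called. In 5 members (Prox1, Flt4, Pdpn, Reln and Mmrn1) every combination tumor lay above every untreated tumor, which 4.64% of all genes tested did. In a bulk sample, more cells of a type and more RNA per cell cannot be told apart.

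**Figure D1:**
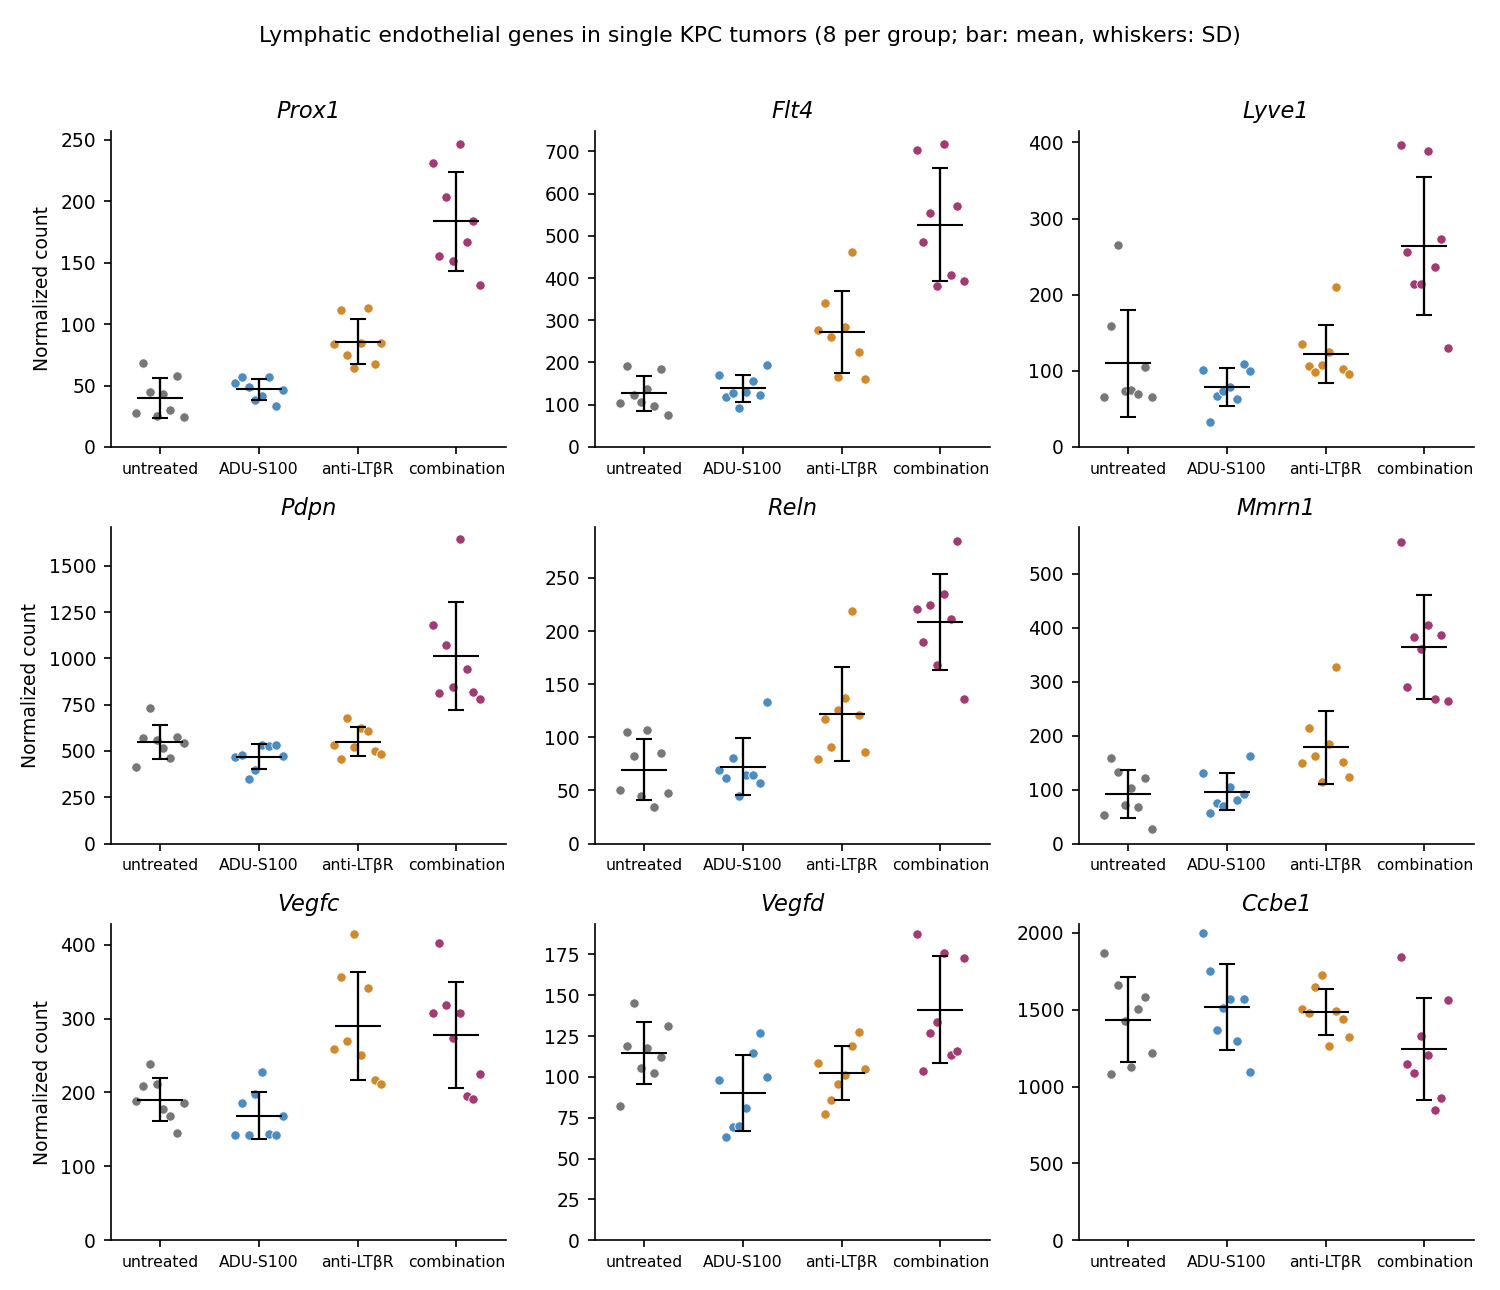
Normalized count (vertical axes, each from 0) of the 9 genes in single tumors of the 4 groups (8 points each), with the group mean as a bar and the SD as whiskers. Prox1, Flt4, Pdpn, Reln and Mmrn1 show combination tumors entirely above untreated tumors, whereas the Ccbe1 ranges of all groups overlap.

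Prox1 (ENSMUSG00000010175, mm39 chr1:189850232-189902911, minus strand) encodes the homeobox transcription factor that sets lymphatic endothelial fate. It ranged from 24.3 to 68.0 normalized counts in untreated tumors (median 36.5), from 33.1 to 57.2 with ADU-S100 (median 47.7), from 64.3 to 113 with anti-LTβR (median 84.1) and, with both agents, from 132 to 246 (median 175). The combination group stood clear of the other 3 groups, and 6 of 8 anti-LTβR tumors lay above every untreated tumor. Its mean was 4.58 times higher in combination than in untreated tumors, a log2 fold change of 2.23 (SE 0.21, adjusted p = 5.01e-06). By p-value Prox1 ranked 26 of 16909 genes in that comparison. Anti-LTβR alone gave 1.14 (SE 0.21, adjusted p = 0.0037) and ADU-S100 alone 0.29 (SE 0.21, adjusted p = 0.49). The order of the groups was therefore combination, anti-LTβR, then ADU-S100 and untreated tumors, and the last 2 did not differ beyond their spread.

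Flt4 (ENSMUSG00000020357, mm39 chr11:49500090-49543566, plus strand) encodes VEGFR-3, the receptor through which lymphatic endothelium reads VEGF-C and VEGF-D. It ranged from 75.0 to 192 in untreated tumors (median 114), from 93.3 to 193 with ADU-S100 (median 129), from 162 to 461 with anti-LTβR (median 268) and, with both, from 381 to 717 (median 519.6). Combination tumors again lay above all untreated and all ADU-S100 tumors, while 3 of them fell within the range of the anti-LTβR tumors. The log2 fold change against untreated tumors was 2.07 in combination (SE 0.19, adjusted p = 4.80e-06), 1.08 with anti-LTβR (SE 0.22, adjusted p = 0.0069) and 0.16 with ADU-S100 (SE 0.19, adjusted p = 0.67).

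Mmrn1 (ENSMUSG00000054641, mm39 chr6:60901960-60966362, plus strand) encodes multimerin-1, a secreted protein of lymphatic endothelium that is also stored in platelets. Its levels spread widely, from 27.3 to 159 in untreated tumors (median 87.7), 57.3 to 162 with ADU-S100 (median 85.8), 115 to 328 with anti-LTβR (median 156) and, with both, 264 to 559.9 (median 371). All combination tumors were above all untreated ones, as were 4 of 8 anti-LTβR tumors. The log2 fold change was 2.11 in combination (SE 0.29, adjusted p = 5.52e-05) and 1.05 with anti-LTβR (SE 0.31, adjusted p = 0.0322). The latter call was lost on leaving out any 1 of 6 tumors, namely untreated 1, 4 or 6 or anti-LTβR 2, 5 or 6, with adjusted p from 0.0504 to 0.0652.

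The upstream sequences of Prox1, Flt4 and Mmrn1 are shown because these genes had the 3 highest fold changes of the members and moved together between tumors. Each is the 250 bases before a start annotated in RefSeq on GRCm38.p6, read 5′ to 3′ on the gene's strand. Of the 9 members, 7 had an entry in the set of upstream sequences used. The starts were not compared with the mm39 gene positions given above. The Mmrn1 stretch ends in a run of C and T before AG, the form of an intron end, so that start may lie inside the gene. Capitals mark matches on either strand to the κB-like pattern GGGNNNNNCC or the SOX-like pattern AACAAT.
Prox1, chr1:190170828-190171077, minus strand: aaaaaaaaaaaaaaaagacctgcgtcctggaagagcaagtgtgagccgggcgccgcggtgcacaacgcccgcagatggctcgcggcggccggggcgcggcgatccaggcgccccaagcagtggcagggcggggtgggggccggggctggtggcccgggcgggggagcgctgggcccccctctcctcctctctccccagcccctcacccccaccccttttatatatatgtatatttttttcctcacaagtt
Flt4, chr11:49609429-49609678, plus strand: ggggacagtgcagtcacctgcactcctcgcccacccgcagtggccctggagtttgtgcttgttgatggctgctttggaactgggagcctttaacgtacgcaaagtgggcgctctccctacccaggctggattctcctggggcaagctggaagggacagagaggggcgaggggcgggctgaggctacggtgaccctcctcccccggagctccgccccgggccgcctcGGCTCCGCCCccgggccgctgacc
Mmrn1, chr6:60944067-60944316, plus strand: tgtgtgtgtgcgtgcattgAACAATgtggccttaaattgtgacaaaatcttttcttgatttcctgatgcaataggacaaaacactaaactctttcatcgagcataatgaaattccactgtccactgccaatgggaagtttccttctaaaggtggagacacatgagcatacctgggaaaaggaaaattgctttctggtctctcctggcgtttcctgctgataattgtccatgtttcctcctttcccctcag
These upstream parts differ in base composition, with G and C making up 64.8% of the Prox1, 68.4% of the Flt4 and 42.4% of the Mmrn1 bases. The κB-like pattern is short and loose, 45.8% of 32851 mouse upstream sequences hold it, and its only match among the 3 begins 24 bases before the Flt4 start. Of the 7 members with an entry, 4 held it (Flt4, Pdpn, Reln and Vegfc). The SOX-like pattern, held by 9.42% of all upstream sequences, had its only match among the 7 in Mmrn1, starting 231 bases before the start. Of 3 further patterns searched on both strands, the ETS-like (AGGAAG, in 29.5% of all) had no match in any of the 7. The GATA-like pattern GATAAG, found in 6.55% of all upstream sequences, had its only match among the 7 in Vegfd. The core of nuclear receptor sites, AGGTCA, found in 14.02% of all, had its only match in Pdpn. A match is a description of the letters and not of binding.

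Lyve1 (ENSMUSG00000030787, mm39 chr7:110449814-110462446, minus strand) encodes a hyaluronan receptor on the surface of lymphatic capillaries, and some tissue macrophages carry it too. It ranged from 65.1 to 265 in untreated tumors (median 74.4), 32.6 to 109 with ADU-S100 (median 76.3), 95.8 to 211 with anti-LTβR (median 107) and, with both, 129.8 to 397 (median 246). Untreated tumor 3, at 265, stood far above its group, and so only 3 combination tumors exceeded every untreated tumor. In combination tumors Lyve1 rose by a log2 fold change of 1.37 (SE 0.29, adjusted p = 0.0014), which became 1.58 without untreated tumor 3. Against ADU-S100 tumors all 8 combination tumors were higher. Unlike Prox1 and Flt4, Lyve1 was not called with anti-LTβR alone, where the log2 fold change was 0.30 with a 95% confidence interval of -0.27 to 0.86, and no alternative called it. The value became 0.51 without untreated tumor 3 (adjusted p = 0.0926), 0.18 without anti-LTβR tumor 6 (adjusted p = 0.67) and 0.15 by edgeR with TMM scaling on recovered reads (adjusted p = 0.74).

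Pdpn (ENSMUSG00000028583, mm39 chr4:142994001-143026134, minus strand) encodes podoplanin, a membrane mucin that binds the platelet receptor CLEC-2 and is shared with fibroblasts, mesothelium and some tumor cells. Untreated tumors ran from 413 to 731 (median 553), ADU-S100 tumors from 349.6 to 534 (median 475), those with anti-LTβR from 456 to 677 (median 527) and those with both from 783 to 1643 (median 893). Every combination tumor lay above every tumor of the other 3 groups. The log2 fold change was 0.86 in combination (SE 0.14, adjusted p = 0.00022), and with anti-LTβR it was 0.01, with an interval of -0.21 to 0.23. The sign of the anti-LTβR value changed when 1 of 5 tumors was left out, so no direction is given for it.

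Reln (ENSMUSG00000042453, mm39 chr5:22089452-22549700, minus strand) encodes reelin, a large secreted glycoprotein best known from the brain that lymphatic endothelium also makes. Its range was 34.5 to 107 in untreated tumors (median 66.3), 45.2 to 134 with ADU-S100 (median 64.5), 79.6 to 219 with anti-LTβR (median 119) and, with both, 136 to 285 (median 216). Combination tumors were all above the untreated tumors, and 5 of 8 anti-LTβR tumors were. In combination the log2 fold change was 1.65 (SE 0.23, adjusted p = 5.76e-05). With anti-LTβR it was 0.84 (SE 0.25, adjusted p = 0.0348), a call that was lost without untreated tumor 1, 4, 6 or 8 or anti-LTβR tumor 2, 4, 5, 6 or 7 (adjusted p 0.0542 to 0.0696). The summed level of 4 skeletal muscle genes, with which Reln varied between tumors of a group (Pearson's r = 0.54 over 32 tumors), had a higher median in each treated group than in untreated tumors, and its part in the Reln result was not tested.

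The ligand genes and their helper followed other patterns. Vegfc (ENSMUSG00000031520, mm39 chr8:54530641-54640131), the main lymphatic growth factor gene, ranged from 144 to 238 in untreated tumors (median 187), 142 to 227 with ADU-S100 (median 156), 212 to 414 with anti-LTβR (median 264) and, with both, 191 to 402 (median 290.1). It was higher with anti-LTβR whether or not ADU-S100 was given. The log2 fold change was 0.58 with anti-LTβR alone (SE 0.14, adjusted p = 0.0131) and 0.51 in combination (SE 0.15, adjusted p = 0.0095). Adding ADU-S100 to the antibody gave -0.07 with an interval of -0.43 to 0.29, and 5 of 8 combination tumors and 6 of 8 anti-LTβR tumors lay above every untreated tumor.

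Vegfd (ENSMUSG00000031380, mm39 chrX:163156374-163185646), the gene of the other VEGFR-3 ligand, ran from 82.5 to 146 in untreated tumors (median 115), 63.3 to 127 with ADU-S100 (median 89.5), 77.3 to 127 with anti-LTβR (median 103) and, with both, 103 to 187 (median 130.4). Each agent alone gave a value below 0 that was not called, -0.36 with ADU-S100 (unadjusted p = 0.0289, adjusted p = 0.31) and -0.16 with anti-LTβR (adjusted p = 0.37). In combination the value was 0.29 (SE 0.14, adjusted p = 0.11). Only 3 of 8 combination tumors lay above every untreated tumor.

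Ccbe1 (ENSMUSG00000046318, chromosome 18), which encodes the helper of VEGF-C processing, ran from 1082 to 1872 in untreated tumors (median 1465), 1094 to 2001 with ADU-S100 (median 1539), 1265 to 1725 with anti-LTβR (median 1486) and, with both, 848 to 1844 (median 1176). The groups overlapped throughout. No comparison called Ccbe1, the log2 fold change in combination being -0.22 (SE 0.15, adjusted p = 0.25). Between tumors it varied with the summed list of keratins and Epcam. Over the 32 tumors, each value taken less its group mean, the Pearson correlation was 0.72. In combination tumors the SD was 8518 for Krt14 and 3245 for Krt5, and at most 1021 for the rest of the list. The part of tumor cells and of skin in this correlation was not tested. These points share their libraries, and the keratins are also made by the skin.

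**Figure D2:**
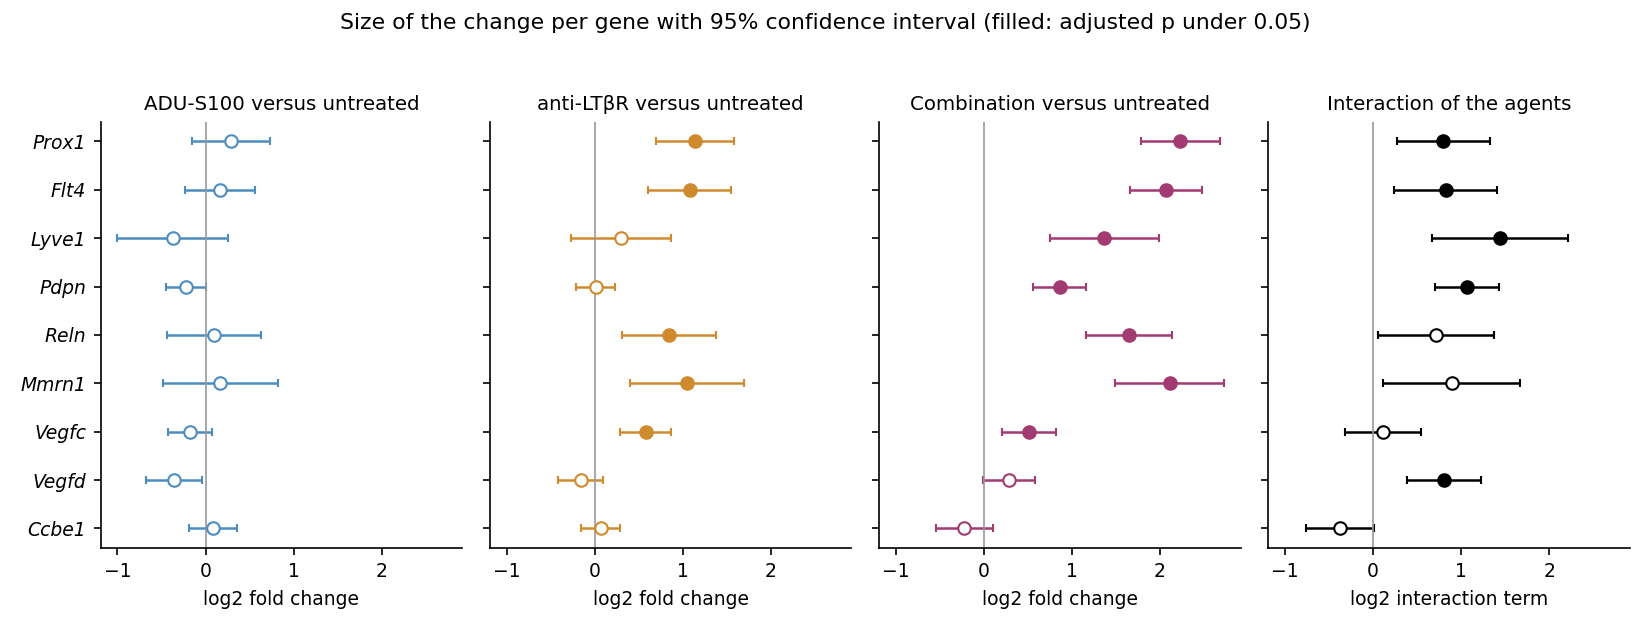
Log2 fold change (horizontal axis) of each gene with its 95% confidence interval against untreated tumors, and in the last panel the interaction of the agents, with filled points for an adjusted p under 0.05. The points of Prox1, Flt4, Reln and Mmrn1 move from about 0 with ADU-S100 to about 1 with anti-LTβR and beyond 1.6 with both, whereas Lyve1 and Pdpn leave 0 only with both.

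The comparison of combination with anti-LTβR tumors asks what ADU-S100 added to the antibody. Here 7 of 9 members rose, where 11.3% of 16932 genes were called higher. Prox1 rose by 1.09 (SE 0.15, adjusted p = 0.00073), Lyve1 by 1.07 (SE 0.21, adjusted p = 0.0022), Mmrn1 by 1.06 (SE 0.20, adjusted p = 0.0017) and Flt4 by 0.99 (SE 0.20, adjusted p = 0.0030). Pdpn at 0.85, Reln at 0.81 and Vegfd at 0.44 passed as well (adjusted p = 0.000925, 0.0057 and 0.0267). The Vegfd call was lost without anti-LTβR tumor 2 or combination tumor 5 (adjusted p = 0.0562 each). For Prox1 and Pdpn every combination tumor lay above every anti-LTβR tumor, as was the case for 1.45% of genes. Ccbe1 had a value of -0.29 (adjusted p = 0.11), and it was called lower without combination tumor 1 (-0.38, adjusted p = 0.0231).

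Against ADU-S100 tumors, 8 of 9 members were higher in combination tumors (20.2% of all genes), from 0.65 for Vegfd (adjusted p = 0.0044) to 1.94 for Prox1 (adjusted p = 2.58e-06) and for Mmrn1 (adjusted p = 7.43e-06). In all, 6 members were entirely higher in combination than in ADU-S100 tumors (Prox1, Flt4, Lyve1, Pdpn, Reln and Mmrn1), against 5% of genes. Anti-LTβR tumors were higher than ADU-S100 tumors in 5 members (3.38% of all genes), namely Prox1 (0.85, adjusted p = 0.0060), Flt4 (0.92, adjusted p = 0.0164), Mmrn1 (0.88, adjusted p = 0.0310), Vegfc (0.76, adjusted p = 0.0093) and Reln (0.75, adjusted p = 0.0466). The Reln call was lost under 5 alternatives (adjusted p 0.0532 to 0.113) and the Mmrn1 call with all groups in a joint fit (adjusted p = 0.0687) or with the replicate block (adjusted p = 0.080). The Lyve1 value was 0.67 (adjusted p = 0.073), which DESeq2 called (adjusted p = 0.0345). These comparisons share tumors with those above and are not separate evidence.

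ADU-S100 alone called 0 of 9 members and 0% of 16613 genes by limma, of which 2408 had an unadjusted p under 0.05. On recovered reads DESeq2 called 39 genes and edgeR 1, none of them a member, and DESeq2 gave an adjusted p for 1 member only. The intervals of the log2 fold change reached from -1.004 to 0.26 for Lyve1 and from -0.15 to 0.74 for Prox1, so moderate changes in either direction were not detectable.

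Whether the agents together did more than the sum of their single effects on the log2 scale was tested as an interaction over all 32 tumors. Of the 9 members, 5 had a called positive interaction term (7.33% of 17649 genes did): Lyve1 at 1.44 (SE 0.38, adjusted p = 0.0083), Pdpn at 1.07 (SE 0.18, adjusted p = 0.00041), Flt4 at 0.82 (SE 0.29, adjusted p = 0.0423), Vegfd at 0.80 (SE 0.21, adjusted p = 0.0076) and Prox1 at 0.80 (SE 0.26, adjusted p = 0.0306). The Flt4 call was lost when low genes were kept in the adjustment (adjusted p = 0.0576). The terms of Mmrn1 (0.89, adjusted p = 0.099) and Reln (0.71, adjusted p = 0.12) were of like size with wider intervals and were not called, and that of Vegfc was 0.11 (interval -0.32 to 0.54). The term takes in the values with ADU-S100 alone, which were below 0 for Lyve1 (-0.37), Vegfd (-0.36) and Pdpn (-0.22) without being called.

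Per kilobase of exon (GENCODE vM21) the order of the members was as follows. In untreated tumors Pdpn stood highest with a mean of 301.3 normalized counts per kb (SD 51.4, n = 8), then Ccbe1 with 132, Vegfc with 77.7, Vegfd with 47.5 and Lyve1 with 37.6. Mmrn1 and Flt4 were close together at 15.7 and 15.4, and Prox1 (4.78) and Reln (2.94) were lowest. In combination tumors Lyve1 reached 90.4, Flt4 63.9, Mmrn1 62.2, Prox1 21.9 and Reln 8.80 per kb, so that Lyve1, Flt4 and Mmrn1 passed Vegfd at 58.6.

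Among 26 other genes of lymphatic development and function, 24 were tested in combination against untreated tumors, and 18 rose while 4 fell, against 19.6% higher and 23.6% lower of all genes. Their median log2 fold change was 0.80, against -0.02 for all genes tested. Ccl21a, the chemokine through which lymphatic vessels draw in dendritic cells and T cells, rose by 1.93 (SE 0.27, adjusted p = 5.52e-05). Near-identical Ccl21 copies could share its reads. Fat4, a large cadherin of lymphatic valves, rose by 1.80 (SE 0.26, adjusted p = 6.99e-05) and Ackr2, a scavenger receptor for inflammatory chemokines on lymphatic endothelium, by 1.71 (SE 0.21, adjusted p = 2.87e-05). Ramp2, the partner of the adrenomedullin receptor, rose by 1.54 (SE 0.17, adjusted p = 1.19e-05). Clec1b, the gene of the platelet receptor that binds podoplanin, rose by 1.096 (adjusted p = 0.0015). Of the transcription factor genes, named here after their values were seen, Sox18, which acts on Prox1 in development, rose by 1.37 (adjusted p = 1.91e-05) and Gata2 by 0.57 (adjusted p = 0.0021), whereas Nr2f2 fell by 0.49 (adjusted p = 0.00058), Foxc1 by 0.55 (adjusted p = 0.00099) and Foxc2 by 0.32 (adjusted p = 0.0291). Few of these 24 genes are particular to lymphatic vessels: blood endothelium also makes Sox18, Ramp2, Kdr, Tie1, Tek, Gja4 and Calcrl, fibroblasts make Fat4, Dchs1 and Svep1, and many stromal and tumor cells make Nr2f2, Foxc1 and Foxc2. Genes of blood endothelium and of fibroblasts rose as well, and their part in the list's change was not tested. The fourth gene that fell was Piezo1 (-0.21, adjusted p = 0.0496), a call lost without the filter on low counts (adjusted p = 0.0685), as was that of Nrp2 (0.19, adjusted p = 0.0450, and 0.0643 without the filter).

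With anti-LTβR alone, 5 of the 24 rose (Ackr2, Ramp2, Gja4, Tie1 and Nrp2) and 1 fell (Adm), with a median of 0.22, where 7.21% of all genes were higher and 8.1% lower. The Tie1 and Nrp2 calls were lost when low genes were kept (adjusted p = 0.0616 and 0.0724). Against anti-LTβR tumors, combination tumors were higher in 15 and lower in 4 of the 24, where 11.3% of all genes were higher and 15.3% lower. The interaction was positive in 11 and negative in 4 of 25, where 7.33% of all genes were positive and 11% negative, and ADU-S100 alone called 0 of 24.

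**Figure D3:**
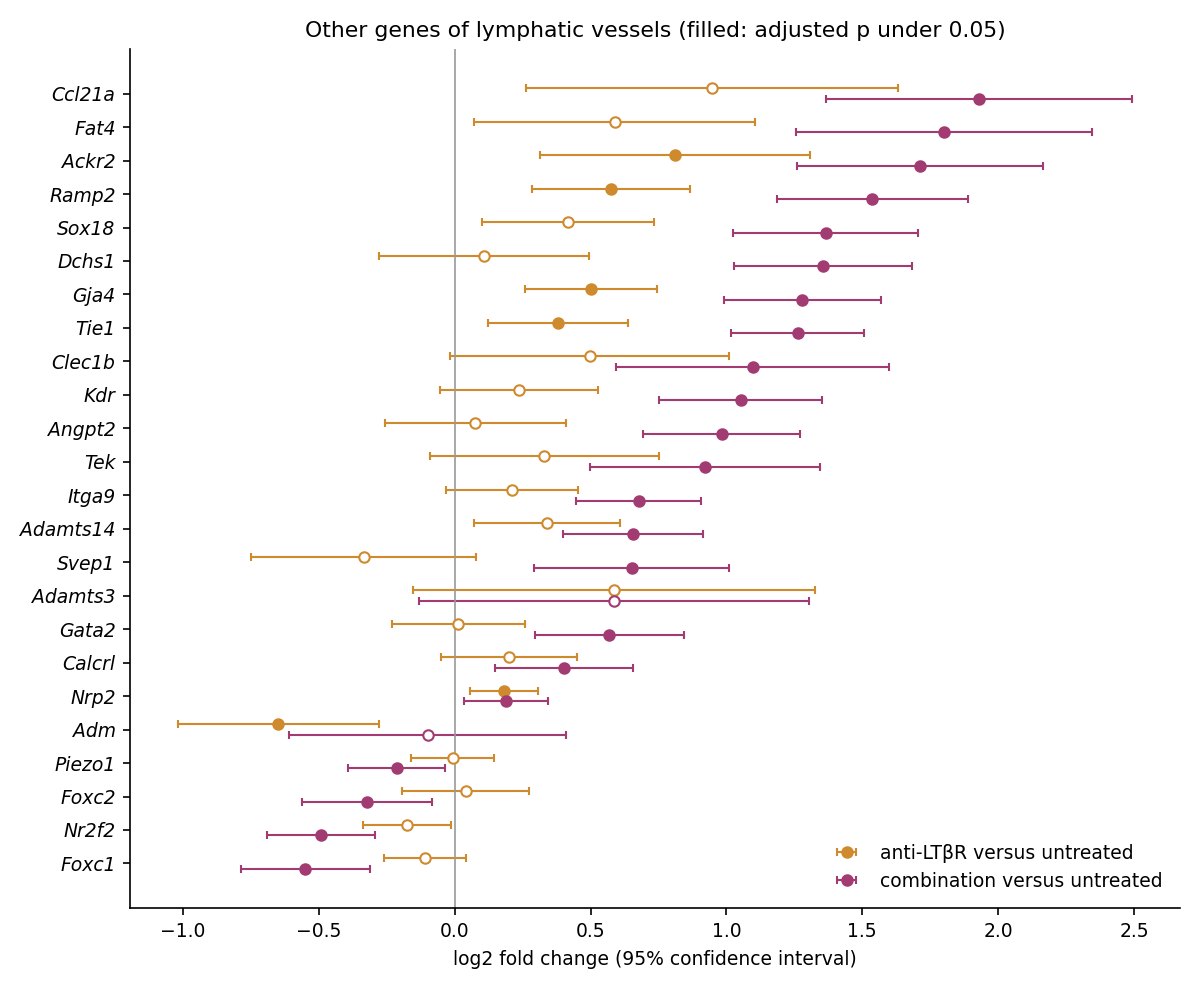
Log2 fold change with 95% confidence interval (horizontal axis) of 24 other genes of lymphatic vessels in combination (purple) and anti-LTβR tumors (orange) against untreated tumors, filled where the adjusted p was under 0.05. Most combination points lie to the right of 0 and of their anti-LTβR points, with Ccl21a, Fat4 and Ackr2 at the top and Foxc1, Nr2f2 and Foxc2 below 0.

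Blood vessels form the other source of endothelial RNA. All 7 pan-endothelial genes (among them Pecam1, Cdh5 and Cldn5) rose in combination tumors, where 19.6% of all genes were called higher. Their median was 0.90, below the members' median. Their sum ran from 1762 to 2474 in untreated, 1476 to 2258 in ADU-S100, 2093 to 2731 in anti-LTβR and 3252 to 4420 normalized counts in combination tumors. Cldn5, a tight junction gene, had the largest change of this list with 1.48 (adjusted p = 4.77e-06). Of 7 genes more typical of blood endothelium 5 rose, led by Plvap with 0.92 (adjusted p = 1.55e-05), while Flt1 had -0.19 (adjusted p = 0.28). With anti-LTβR alone, 4 of 7 pan-endothelial and 1 of 7 blood endothelial genes rose, where 7.21% of all genes were called higher. The sum of the blood endothelial list ran from 5837 to 9967 in untreated and from 6341 to 8756 in combination tumors, of which Flt1 alone made up 79.1% to 89.5% and 67.4% to 80.3%. Without Flt1 the sum ran from 921 to 1327 and from 1649.6 to 2066, so that the groups did not overlap.

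To set the members against endothelial RNA as a whole, each was expressed per 1000 normalized counts of the pan-endothelial sum, a ratio chosen after the data were seen and given as values without a test. Lymphatic cells also express these 7 genes, so the sum is not one of blood vessels alone. Prox1 ran from 12.4 to 32.5 per 1000 in untreated tumors, from 17.3 to 29.9 with ADU-S100, from 27.3 to 53.4 with anti-LTβR and from 37.7 to 59.6 in combination tumors. All 8 combination tumors and 4 anti-LTβR tumors were above every untreated tumor. Of all genes tested, 0.112% were entirely higher in combination than in untreated tumors on this scale. Flt4 and Mmrn1 were above every untreated tumor in 7 of 8 combination tumors and Reln in 4. Flt4 had medians of 57.1 per 1000 in untreated and 149 in combination tumors, and Mmrn1 of 47.0 and 97.5.

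For Reln the medians were 29.7 and 55.3. The Lyve1 median was 40.2 per 1000 in untreated and 70.8 in combination tumors, and no combination tumor exceeded untreated tumor 3, at 107. Pdpn had medians of 275 and 254, with 1 of 8 combination tumors above all untreated ones. Vegfc, Vegfd and Ccbe1 had lower medians in combination than in untreated tumors on this scale. Per 1000 counts of the blood endothelial sum, which is mostly Flt1, all 8 combination tumors lay above every untreated tumor for Prox1, Flt4, Reln and Mmrn1, as did 2.4% of all genes. With Flt1 left out of that sum no member kept this: 7 of 8 combination tumors lay above every untreated tumor for Prox1 and Flt4, 6 for Mmrn1, 3 for Reln, 2 for Pdpn and 1 for Lyve1. Of all genes, 0.0769% were entirely higher in combination tumors. On this last scale the Prox1 medians were 31.3 in untreated and 92.9 in combination tumors, and those of Flt4 were 109 and 289.7.

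**Figure D4:**
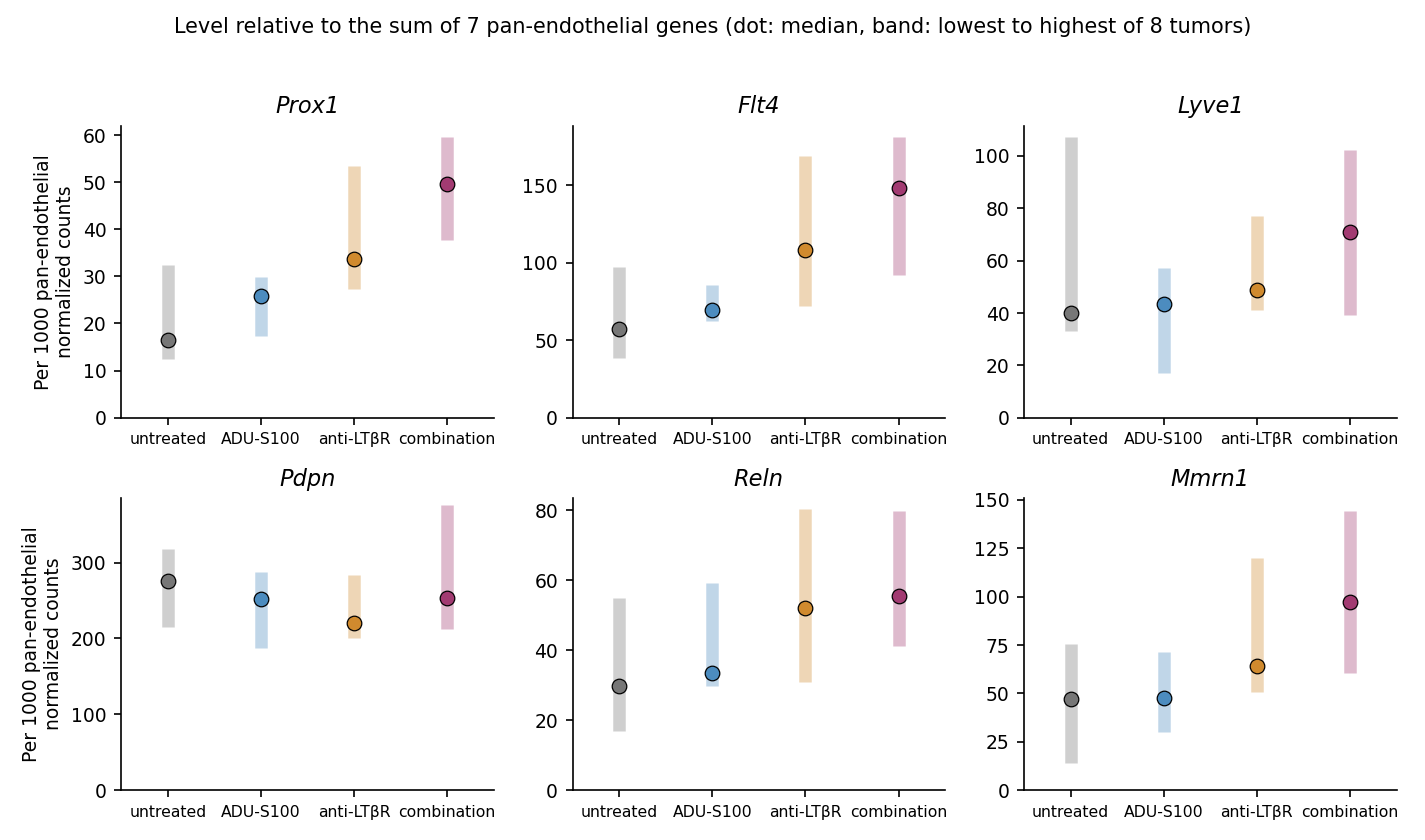
Level of 6 members per 1000 normalized counts of 7 summed pan-endothelial genes (vertical axes, from 0), with the median as a dot and the lowest to highest of 8 tumors as a band. For Prox1 the combination band (37.7 to 59.6) lies above the untreated band (12.4 to 32.5), whereas the Pdpn bands share most of their range.

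Other cells carry some of the members, and their markers are read here against the 19.6% of all genes called higher in combination tumors. All 8 fibroblast genes rose in combination tumors (median 1.39, led by Col1a2 with 1.66, adjusted p = 2.95e-05), and their sum ran from 63084 to 100073 in untreated and from 105500 to 383133 in combination tumors. Within groups, Pdpn had a correlation of 0.58 with that sum, Vegfd 0.61, Flt4 0.39 and Prox1 0.29, and with the pan-endothelial sum 0.60, 0.48, 0.45 and 0.39. Of 7 macrophage genes 3 rose (Cd68 with 0.85, adjusted p = 0.00015, Csf1r and Adgre1) with a list median of 0.15, while Cd163 (-0.18), Folr2 (-0.01), Timd4 (0.0037) and Mrc1 (0.15) were not called, and the sum ran from 6391 to 11932 in untreated and 9273 to 14029 in combination tumors. Lyve1 had a correlation of 0.51 with it and of 0.54 with the pan-endothelial sum, and Prox1 had 0.09 and 0.39, over 32 tumors that share their libraries with both measures. Of 5 platelet and megakaryocyte genes 1 rose, Itga2b with 0.58 (adjusted p = 0.0159), a share near that of all genes, and their sum ran from 547 to 921 in untreated and 646 to 1800 in combination tumors. The part of fibroblasts in the Pdpn result, of macrophages in that of Lyve1 and of platelets in that of Mmrn1 was not tested.

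Marker genes of tissue at the tumor margin, and of other cells in the tumor, varied between tumors. Where in a sample their RNA came from was not tested. Of all genes tested in combination against untreated tumors, 19.6% were called higher and 23.6% lower. The sum of 4 skeletal muscle genes spanned 4885 to 100185 in untreated and 5255 to 302068 in combination tumors, with 0 of 4 called. The untreated tumors had a median sum of 7427, against 68957 after ADU-S100, 88291 under the antibody and 86613 under both, and the median log2 fold change of these genes in combination tumors was 1.51. Between tumors of a group Reln had a correlation of 0.54 with the muscle sum and Ccbe1 of -0.56, and the other members lay between -0.28 and 0.19. None of 4 adipocyte genes was called either, with sums of 132 to 2225 and 151 to 1836. Of 6 tumor epithelium and keratinocyte genes 3 fell, Krt18 by 1.46 (adjusted p = 2.99e-05), Krt8 and Krt19, and their sum ran from 23182 to 41358 in untreated and 7362 to 41605 in combination tumors. Msln, the only mesothelium gene of 3 that passed the filter, fell by 1.53 (adjusted p = 2.87e-05). Its mean in untreated tumors was 3411, against 5.37 for Upk3b and 5.43 for Lrrn4. Which cells made the Msln RNA was not tested. Cd79a, a part of the B cell receptor, rose by 1.60 (adjusted p = 0.0031), Ms4a1, another B cell gene, had 0.90 (adjusted p = 0.069), and Cr2 and Fcer2a did not pass the filter. Among 5 genes of lymph node stroma and its vessels 3 were tested and 1 rose, Tnfsf11 by 0.73 (adjusted p = 0.0019), while Cxcl13, a B cell chemokine, had -0.96 (adjusted p = 0.073) and was lower than in anti-LTβR tumors (-1.09, adjusted p = 0.0351). Ccl19 had 0.57 (adjusted p = 0.15). Glycam1 and Madcam1 did not pass the filter. Without it they had 2.05 (adjusted p = 0.00098) and 0.77 (adjusted p = 0.18). Glycam1 was low, at 0 to 5.03 in untreated and 4.74 to 16.6 in combination tumors. The sums of this list were 47.2 to 127 in untreated and 78.3 to 135 in combination tumors. Ptprc, carried by leukocytes, rose by 0.59 (adjusted p = 0.00013). No list had a gene at 0 in all tumors of a group. Their part in the members' changes was not tested.

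Between tumors of 1 group, 5 members varied together. With each log2 value taken less its group mean, the Pearson correlation over 32 tumors was 0.84 between Flt4 and Mmrn1, 0.79 between Prox1 and Flt4, 0.73 between Lyve1 and Mmrn1, 0.71 between Flt4 and Reln and 0.69 between Prox1 and Mmrn1. Prox1 and Lyve1 had 0.46. Pdpn had 0.54 with Lyve1, 0.43 with Flt4 and 0.38 with Prox1. Vegfc did not follow them, with 0.07 for Prox1 and 0.08 for Flt4, and Ccbe1 had -0.11 and -0.07. All points share their library and size factor, and these correlations are descriptions.

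Among 13481 genes with a mean of at least 50 normalized counts, the 3 whose levels went most closely with Prox1 were Flt4 (0.79), Ccl21a (0.75) and Mmrn1 (0.69). For Flt4 they were Ccl21a (0.85), Mmrn1 (0.84) and Ackr2 (0.80), and for Mmrn1 they were Flt4 (0.84), Ccl21a (0.84) and Ccl21b (0.80). The closest to Reln were Pgm5 (0.80) and Dmd (0.77), both genes of muscle cells, before Ccl21a (0.76). Lyve1 was followed by Mmrn1 (0.73), D730005E14Rik (0.67) and Zfp268 (0.67). The measure was the same correlation over the 32 tumors.

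**Figure D5:**
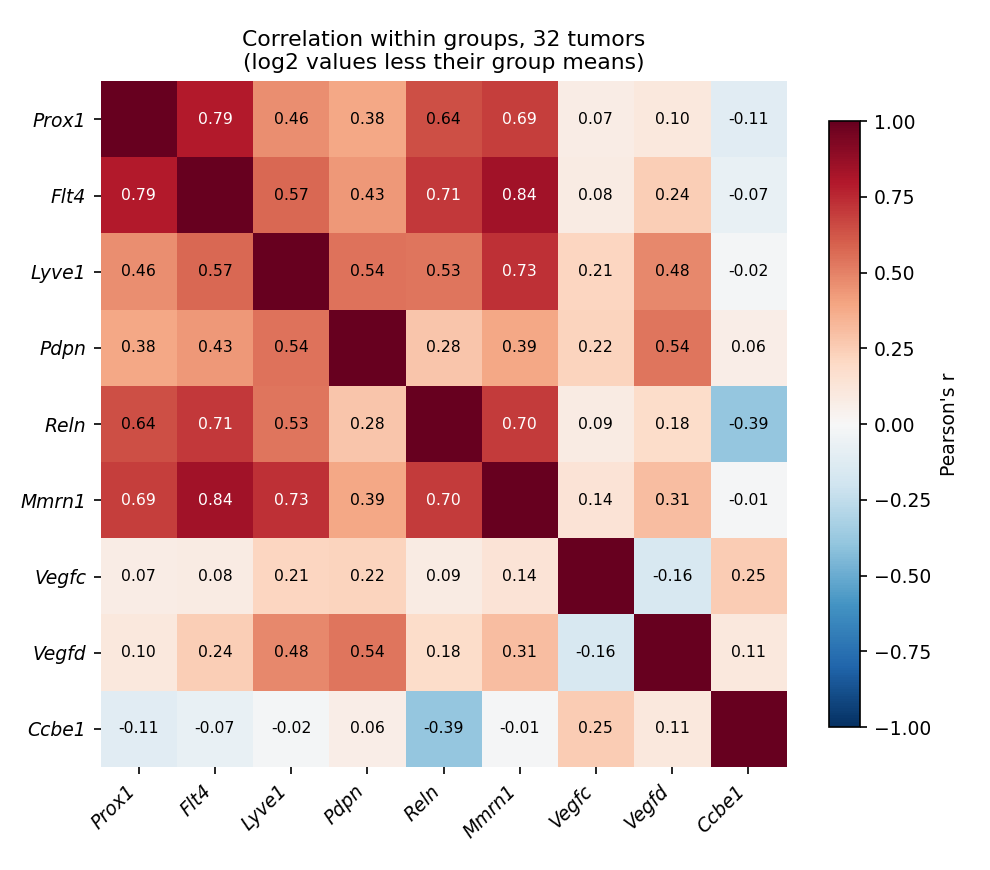
Pearson's r (colour scale from -1 to 1) between the log2 values of each pair of the 9 genes over 32 tumors, after taking away group means. Prox1, Flt4, Reln, Mmrn1 and Lyve1 form a block of values from 0.46 to 0.84, and Vegfc and Ccbe1 stay between -0.11 and 0.21 with that block apart from -0.39 between Ccbe1 and Reln.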

How the data were processed

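The authors deposited for the 32 tumor libraries a signal per gene, namely estimated reads scaled by a size factor for each library, so that values need not be whole. The methods name Cutadapt 1.9, HISAT2 and StringTie, and the reporting summary STAR in Partek Flow. Which of them made the table was not settled. The labels give mm39, and of 26500 genes 25130 have the same length and 572 the same start in GENCODE vM21 (GRCm38). A second table the authors deposited holds a signal for 52 libraries that divides into whole reads (100% within 0.1 read), although in some libraries the step is too near 1 to be told from rounding. Its 20 other libraries entered no comparison. The deposited gene set enrichment scores of the authors were not used. Per-sample columns left unused number 0.

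The planned count test was replaced by limma 3.58.1 (R 4.3.3, trend) on log2(value + 1), a pseudocount of 1, after edgeR 4.0.16 filterByExpr with a minimum count of 10, with Benjamini-Hochberg adjustment. Each pair used its 16 libraries and the interaction all 32. Alternatives were edgeR with TMM or RLE scaling and DESeq2 1.42.0 on recovered reads (edgeR TMM called 6662 genes in combination against untreated tumors, limma 7305), no filter, a pseudocount of 0.1, equal library totals, 1 fit of all groups, a block for the replicate number, a fold threshold of 2, and, in 3 comparisons, leaving out each tumor. The fit was checked on simulated data with known answers. The ratios to the pan-endothelial and blood endothelial sums (the latter with and without Flt1) were added after the data were seen. The members and all gene lists were chosen with earlier results of these data known. Named are all members, up to 4 called genes per list by size of change in combination against untreated tumors, and the 3 most alike genes. Other list genes were named after their values were seen. Strand was kept by the dUTP library method. Whether the counting used it is not given in the sources used here. The full B cell marker list is not reported here.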

Additional observations from a re-analysis of the deposited data

Results flagged for a closer look

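In 6 of 36 sets of 8 tumors (9 genes in 4 groups), the highest tumor stood apart from the rest by Dixon's criterion on normalized counts. Chance alone meets it in about 1 of 20 sets of normally distributed values. That rate need not hold for counts, and log2 values were not searched. Lyve1 stood at 265 normalized counts in untreated tumor 3, and at 211 in anti-LTβR tumor 6. The same anti-LTβR tumor 6 was highest for Reln, at 219, and for Mmrn1, at 328. Pdpn reached 1643 in combination tumor 5 and Reln 134 in ADU-S100 tumor 8.

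The change with anti-LTβR differed with and without ADU-S100 for 5 of 9 members, tested as the interaction of the agents. Of all 17649 genes, 7.33% had a called positive term. The terms were 1.44 for Lyve1, 1.07 for Pdpn, 0.82 for Flt4, and 0.80 for both Vegfd and Prox1, on the log2 scale. The Flt4 call was lost without the filter on low counts (adjusted p = 0.0576). Vegfd was not called against untreated tumors with either agent or with both.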

How the results depend on the processing

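Of 919 log2 fold changes of single members under alternatives, 883 kept direction and call, 26 lost the call, 3 gained it and 7 turned sign. Combination against untreated tumors called 7 members under all alternatives except the 2-fold rule (5, against 6.12% of all genes in either direction), and combination against ADU-S100 tumors 8, or 6 under that rule (6.17% of all genes). With a 2-fold change required, 3 members were called in anti-LTβR against untreated tumors (1.04% of all genes), 3 in combination against anti-LTβR tumors (2.11%) and 0 in anti-LTβR against ADU-S100 tumors (0.601%). Leaving out 1 tumor, done in 3 comparisons, gave 3 to 5 calls in anti-LTβR against untreated tumors. The lowest count came without untreated 1, 4 or 6 or anti-LTβR 2, 5 or 6, and the members lost were Reln and Mmrn1. It gave 7 calls throughout in combination against untreated tumors and 6 to 8 in combination against anti-LTβR tumors. All 4 groups in a joint fit gave 3 calls in anti-LTβR against ADU-S100 tumors. The signs that turned were of values near 0, with 1 tumor left out: Pdpn in anti-LTβR against untreated tumors ranged from -0.0431 to 0.0742 (below 0 without untreated 1 or 6 or anti-LTβR 3, 5 or 6) and Vegfc in combination against anti-LTβR tumors from -0.150 to 0.0110 (above 0 without anti-LTβR 4 or combination 7). The cause was not tested. DESeq2 called the interaction of Mmrn1 (1.00, adjusted p = 0.0380).

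The labels tie replicate numbers to no shared mouse, litter or day. Same-numbered tumors had a mean correlation of 0.186 in ADU-S100 against untreated tumors, where tumors of different numbers had -0.029. In combination against anti-LTβR tumors these values were 0.173 and -0.025. In the other comparisons the mean of same-numbered tumors lay from -0.0855 to 0.0181. Whether equal numbers mark a shared batch was not tested. The replicate block gave 3 calls in anti-LTβR against ADU-S100 tumors, where Reln (adjusted p = 0.11) and Mmrn1 (0.080) lost the call, and ended the Reln call in anti-LTβR against untreated tumors (adjusted p = 0.0648). It changed no other call.

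No scaling moved the median of all genes by over 0.1. The share of calls that were higher was 42.6% in combination against anti-LTβR tumors (52.7% to 54.5% on recovered reads), 52.7% in anti-LTβR against ADU-S100 tumors (63.9% with equal totals) and 39.9% for the interaction (51.3% with RLE, 51.6% with DESeq2). Over all genes, 1069 were called in anti-LTβR against ADU-S100 tumors, against 475 in the joint fit, 445 with the block, 710 without the filter and 1636 by DESeq2. In anti-LTβR against untreated tumors 2555 were called, and 1660 with the block. In ADU-S100 against untreated tumors 0 were called, against 39 by DESeq2, 2 with the block and 1 by edgeR or in the joint fit. In untreated tumors the 4 members with the lowest medians (Prox1, Reln, Lyve1 and Mmrn1) also had the highest coefficients of variation, from 40.3% to 64.0%.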

Other observations

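The 20 libraries of the other experiment in the larger table stand outside the comparisons, since the labels of 15 contradict each other. On the scale of that table the 5 labelled with the combination in every label held 3.78 to 332 normalized counts of Prox1 (median 118), 93.1 to 494 of Flt4 (median 183), 174 to 533 of Lyve1 (median 231) and 56.7 to 879.5 of Mmrn1 (median 298). Pdpn ran from 287 to 1389 in them (median 946) and Reln from 45.3 to 257 (median 105). Library 3 of these 5 had 8716257 recovered reads against 18028314 to 18789131 in the other 4, and its Prox1 value of 3.78 is 1 read. Without it the lowest values were 58.5 for Prox1, 93.1 for Flt4, 231 for Lyve1, 234 for Mmrn1, 756 for Pdpn and 86.4 for Reln. The 15 unassigned libraries held 28.0 to 200.2 of Prox1 (median 65.4) and 41.9 to 520.3 of Flt4 (median 126). On the same scale the 8 combination tumors of the main experiment held 136 to 259 of Prox1 and 393 to 752 of Flt4, and its untreated tumors 25.2 to 69.1 and 77.9 to 195.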
